A study of Homo sapiens with 12 samples.

Results

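The joint depletion of EED and RNF2 by siRNA in the human embryonal carcinoma line NCCIT was compared with a non-targeting control siRNA (siNTC) across 18417 genes. Expression was read on Affymetrix Human Gene ST arrays, and the comparison rests on 4 of 12 arrays, 2 titled siEED+RNF2 and 2 titled siNTC. Each array gave log2 values for 33297 transcript clusters, which are groups of probes along a transcript. Those with 1 gene in the annotation were kept, and the brightest of them stood for its gene. The other arrays came from siEED, siRNF2, siWDR5 and siSETD2, with 2 arrays each. All groups were the same line, grown in McCoy's 5A medium with serum. Each siRNA reagent against a target was a pool directed at that gene. The siEED+RNF2 mix held both pools, each in the amount used alone, and more transfection reagent than a single knockdown, so the joint loss of the targets cannot be told apart from the larger load of siRNA and reagent. The labels call the siNTC arrays a re-analysis, so the control and whatever that re-analysis involved cannot be told apart either. Whether replicates came from separate cultures is not stated. The p-values therefore measure how far these arrays spread, which may be technical, and having 2 arrays per group limits the precision.

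EED is a core subunit of Polycomb repressive complex 2 (PRC2), which methylates lysine 27 of histone H3, and it binds the methylated product. RNF2 is the E3 ligase of Polycomb repressive complex 1 (PRC1), which ubiquitinates histone H2A. Both complexes hold developmental regulators silent in pluripotent cells, and embryonal carcinoma cells resemble early embryonic cells in this respect.

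Replicate arrays correlated at 0.99597 to 0.99696 across clusters, and the siEED+RNF2 arrays correlated with arrays of other groups at up to 0.99449, the nearest being siRNF2. Of 12 embryonal carcinoma markers, 9 were measured. Of the 9, L1TD1 (-1.08), LIN28B (-0.90) and DNMT3B (-0.62) were lower than in siNTC and none was higher with limma (6 lower and 1 higher at an unadjusted p under 0.05), with a median log2 fold change of -0.25. Over all 18417 genes 6.02% were called lower and 5.49% higher. With the mean of siWDR5 and siSETD2 as the reference, 1 of the 9 was lower. Among the markers not called, SOX2 lay at 12.51 and 12.53 in siEED+RNF2 and 12.78 and 12.76 in the siNTC arrays, and LIN28A at 12.11 and 12.20 against 12.33 and 12.22. POU5F1, NANOG and TDGF1 were not analysed here. Of 12 blood cell markers none was called with limma (1 was higher and 1 lower at an unadjusted p under 0.05), and of 15 smooth muscle and fibroblast markers ACTG2 (-1.35) was the 1 called.

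EED fell in siEED+RNF2. Its log2 level was 7.93 and 7.82 in siEED+RNF2 and 9.55 and 9.43 in the siNTC arrays, so the groups did not overlap. The log2 fold change was -1.61 (95% interval -1.79 to -1.43; Benjamini-Hochberg adjusted p = 5.3e-08 from limma), which left 32.7% of the control signal. EED was lower than in siRNF2 by a log2 difference of -0.95 (adjusted p = 1.58e-05 from limma). Against siEED it lay lower by -0.32 (adjusted p = 0.0243 from limma), under the fold threshold of 1.5 used throughout. Groups in which EED was not targeted also lay below siNTC. EED was called lower in siRNF2 (-0.66), and had values under the threshold in siWDR5 (-0.54) and siSETD2 (-0.42). Against the mean of siWDR5 and siSETD2, EED in siEED+RNF2 was -1.13. The transcript that siRNF2 targets was not analysed here. Among 12 measured PRC2 genes, 2 were lower and 1 higher than in siNTC. SUZ12, the partner that stabilizes the catalytic subunit, was the other decrease. It lay at 10.52 and 10.59 in siEED+RNF2, 11.18 and 11.22 in siNTC, 11.22 and 11.17 in siEED and 11.17 and 11.11 in siRNF2. The siEED+RNF2 arrays stood apart below the other 3 groups. The log2 difference of SUZ12 was -0.65 from siNTC (adjusted p = 5.13e-06), -0.64 from siEED (adjusted p = 2.66e-05) and -0.59 from siRNF2 (adjusted p = 4.84e-05; all from limma). The last of these falls short of the fold threshold (-0.54 at the smallest) without siRNF2 replicate 1, without siEED+RNF2 replicate 1 or with arrays centred on their median over genes, and quantile normalization (-0.58) ends the call against siNTC. EPOP, a PRC2 accessory factor, rose by a log2 fold change of 0.88. Of 22 PRC1 genes, SCMH1 (0.82) was higher and PHC3 (-0.65) lower, but PHC3 was not called against the mean of siWDR5 and siSETD2 (-0.48).

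In all, 1011 genes were higher and 1109 lower than in siNTC, and every called gene had arrays that did not overlap, as did 69.4% of all genes. Increases reached further than decreases. Past a fold of 4 lay 27 increases and 11 decreases, whereas past a fold of 2 lay 238 and 328. The balance of directions depends on how the arrays are scaled. Centring on the median over genes gave 770 higher and 1414 lower, quantile normalization 1191 and 966, and centring on the median over clusters 1194 and 971. On the deposited scale the median over genes was 0.08 higher in siEED+RNF2 than in siNTC, and the median over clusters differed by -0.04.

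INHBE, which encodes an inhibin beta chain secreted by stressed cells, showed the largest increase. Its log2 level was 9.28 and 9.42 in siEED+RNF2 and 5.50 and 5.40 in the siNTC arrays, a 14.96-fold difference (log2 fold change 3.90, standard error 0.11, adjusted p = 1.28e-09 from limma). PCK2, the mitochondrial enzyme that makes phosphoenolpyruvate, lay at 9.66 and 9.72 against 6.14 and 6.24, an 11.3-fold difference. DDIT4, an inhibitor of the growth regulator mTORC1, lay at 10.47 and 10.42 against 7.20 and 7.05, a 9.98-fold difference. In each of the 3 genes the replicates lay close together and far from the control. At the other end, A2M, a secreted protease inhibitor, lay at 6.15 and 5.94 in siEED+RNF2 and 8.53 and 8.69 in the siNTC arrays (log2 fold change -2.57, standard error 0.10, adjusted p = 6.42e-09 from limma). ZNF729, a zinc finger gene, lay at 5.27 and 5.63 against 7.60 and 8.14, with the widest gaps between replicates among the 12 largest decreases. Against the mean of siWDR5 and siSETD2, A2M (0.01), ZNF729 (-0.17) and SLC5A9 (-0.06), a sodium and sugar transporter gene with a log2 fold change of 2.60 against siNTC, no longer differed past the threshold. For these 3 genes siWDR5 and siSETD2 thus lay on the same side of siNTC as siEED+RNF2 did. The single knockdowns moved INHBE and A2M too. Against siNTC, INHBE was 3.39 in siEED and 4.19 in siRNF2, and A2M was -2.48 and -2.53. INHBE was also higher than siNTC in siWDR5 (2.47) but not in siSETD2 (-0.05).

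**Figure D1:**
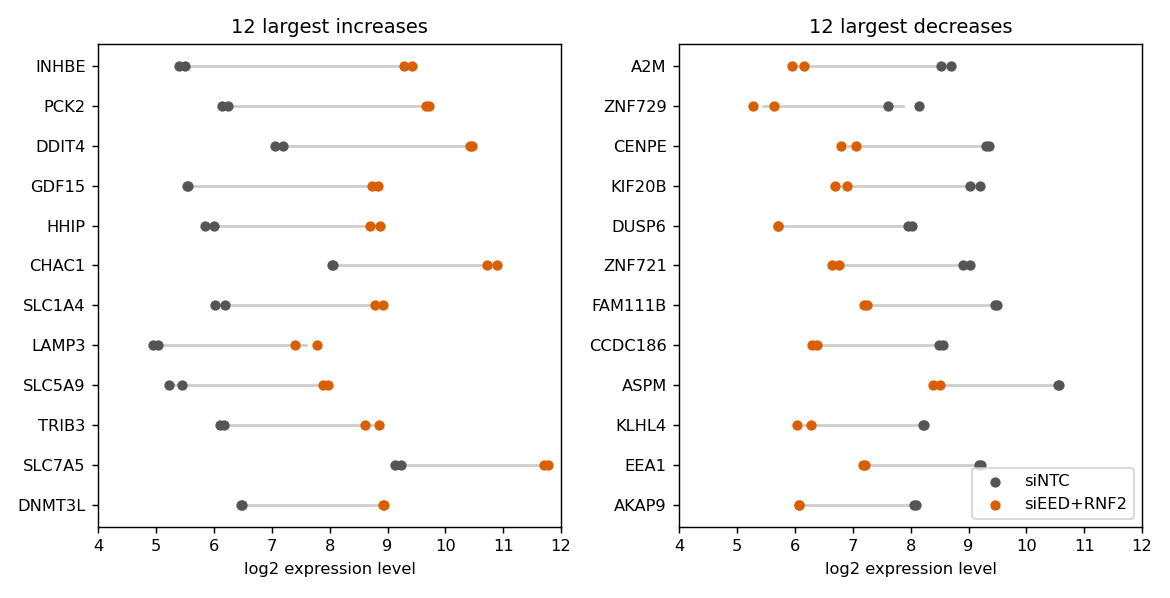
Log2 expression level (horizontal axis) of the 12 genes with the largest increases (left) and the 12 with the largest decreases (right) in siEED+RNF2 against siNTC. Each point is an array (grey siNTC, orange siEED+RNF2, n = 2 each) and the line joins the group means. Genes were chosen among those with both siEED+RNF2 arrays beyond both siNTC arrays, as in INHBE at 9.28 and 9.42 against 5.50 and 5.40.

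The increases were led by genes of the integrated stress response. In this response, kinases of the translation factor eIF2 slow protein synthesis, and the transcription factor ATF4 is made in its place and switches on genes for amino acid supply. Of 20 measured regulators, 13 rose and 1 fell, with a median log2 fold change of 0.88, beside -0.02 over all genes. ATF4 binds with C/EBP partners at a composite element, searched for here as TGATGNAA on either strand from 250 bases before to 50 after the start of 1 promoter per gene (RefSeq, GRCh38.p14). The element was in 3.67% of 27305 promoters, in 2.54% of the 14237 of measured genes, and in 17 of 76 promoters (22.4%) of the combined 5 stress response lists. Within those lists it was in 8 of 34 promoters of genes called higher and in 9 of 41 of genes not called. Across measured genes it was in 2.62% of promoters of genes called higher, 1.86% of those called lower and 2.58% of those not called. A match is a description of the letters and not evidence of a bound site. It is shown for the 3 genes named from these lists whose match lies before the start, with the match in capitals, on the strand of the gene (TTGCATCA is a match on the other strand):
CHAC1 (chr15:40953251-40953280, plus strand): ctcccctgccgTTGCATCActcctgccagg
ASNS (chr7:97872458-97872487, minus strand): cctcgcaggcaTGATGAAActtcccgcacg
AARS1 (chr16:70289675-70289704, minus strand): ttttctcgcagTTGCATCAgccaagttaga

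CHAC1, which breaks down glutathione, lay at 10.71 and 10.89 in siEED+RNF2 and 8.04 and 8.05 in the siNTC arrays (log2 fold change 2.76, standard error 0.07, adjusted p = 7.12e-10 from limma). TRIB3, a pseudokinase that restrains ATF4 and AKT, lay at 8.62 and 8.86 against 6.17 and 6.11, and SESN2, a leucine sensor upstream of mTORC1, at 9.82 and 9.90 against 7.49 and 7.36. The groups did not overlap in any of these genes. The transcription factor genes DDIT3 (1.85), ATF3 (1.65), CEBPB (1.07), ATF5 (0.79) and CEBPG (0.76), from the same list, were called higher too. The ATF4 transcript itself had a log2 fold change of 0.48, below the fold threshold (adjusted p = 8.07e-05 from limma). EIF2AK2, which encodes the eIF2 kinase PKR, was the single decrease (-0.69), and was not called against the mean of siWDR5 and siSETD2 (-0.24). The genes of the other eIF2 kinases were not called, with values of 0.33 for EIF2AK1, -0.10 for EIF2AK3 and -0.28 for EIF2AK4.

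Genes that supply amino acids rose with the regulators. Of 20 enzymes of amino acid and serine synthesis, 10 rose and none fell (17 higher and 2 lower at an unadjusted p under 0.05), with a median log2 fold change of 0.56. ASNS, asparagine synthetase, lay at 11.46 and 11.45 against 9.61 and 9.74 in siNTC (log2 fold change 1.78, standard error 0.07, adjusted p = 6.75e-09 from limma). ALDH1L2, of mitochondrial folate metabolism, lay at 9.81 and 9.95 against 7.39 and 7.61. PSPH, the last step of serine synthesis, had a log2 fold change of 1.70. ASNS and ALDH1L2 were separated from the control by more than the gap between replicates. Of 22 amino acid transporters, 10 rose and none fell (11 higher and 1 lower at an unadjusted p under 0.05). SLC7A5, the light chain of the large neutral amino acid exchanger, lay at 11.70 and 11.78 against 9.23 and 9.13, a 5.88-fold difference. SLC1A4, a neutral amino acid carrier, lay at 8.78 and 8.92 against 6.19 and 6.02, a 6.71-fold difference.

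Of the enzymes that charge tRNAs, mainly cytosolic ones were called. Of 19 cytosolic aminoacyl-tRNA synthetases, 6 rose, led by AARS1 (1.28), CARS1 (1.14), GARS1 (1.12) and WARS1 (0.94), and none fell (10 higher and 5 lower at an unadjusted p under 0.05). Against the mean of siWDR5 and siSETD2 the count was 2. Of 16 mitochondrial synthetases, 1 rose (IARS2, 0.64) and 1 fell (MARS2, -0.64), and neither was called against that mean. The difference between the 2 lists was not tested. The unfolded protein response of the endoplasmic reticulum, which shares eIF2 phosphorylation, was mixed. Of 23 chaperones and response genes, HERPUD1 (1.21) and CLGN (1.38) rose and HSP90B1 (-0.78) and DNAJC3 (-0.76) fell, of which CLGN and HSP90B1 were not called against that mean. Of 14 secreted factors linked to stress, 6 rose. GDF15, a cytokine that curbs appetite, lay at 8.84 and 8.74 against 5.56 and 5.53 in siNTC (log2 fold change 3.24, standard error 0.09, adjusted p = 7.12e-10 from limma), and STC2 (1.76) and VEGFA (1.97) rose as well.

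The 5 stress response lists together counted 45 increases and 1 decrease among 95 measured genes, a median log2 fold change of 0.48. Against siNTC, the median of the 95 was 0.38 in siEED, 0.51 in siRNF2, 0.35 in siWDR5 and -0.0 in siSETD2. Among them, CHAC1 was 2.33 in siWDR5 and -0.59 in siSETD2, and DDIT4 was 2.56 and 1.48. The increase was thus not confined to the knockdowns of EED and RNF2, and its cause was not tested. With the mean of siWDR5 and siSETD2 as the reference, 36 of the 95 rose. Directly against the single knockdowns few were called. Of the 95 genes, 1 was higher and 1 lower than in siEED, where 0.157% of all genes were called higher and 2.75% lower, and 1 was higher and 2 lower than in siRNF2, where 0.239% and 3.03% were. The median log2 difference was 0.12 from siEED and -0.03 from siRNF2. GDF15 was called in both comparisons, higher than in siEED by 0.64 (adjusted p = 0.000331 from limma; 0.57 and under the threshold without siEED replicate 1) and lower than in siRNF2 by -0.86 (adjusted p = 3.72e-05 from limma).

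**Figure D2:**
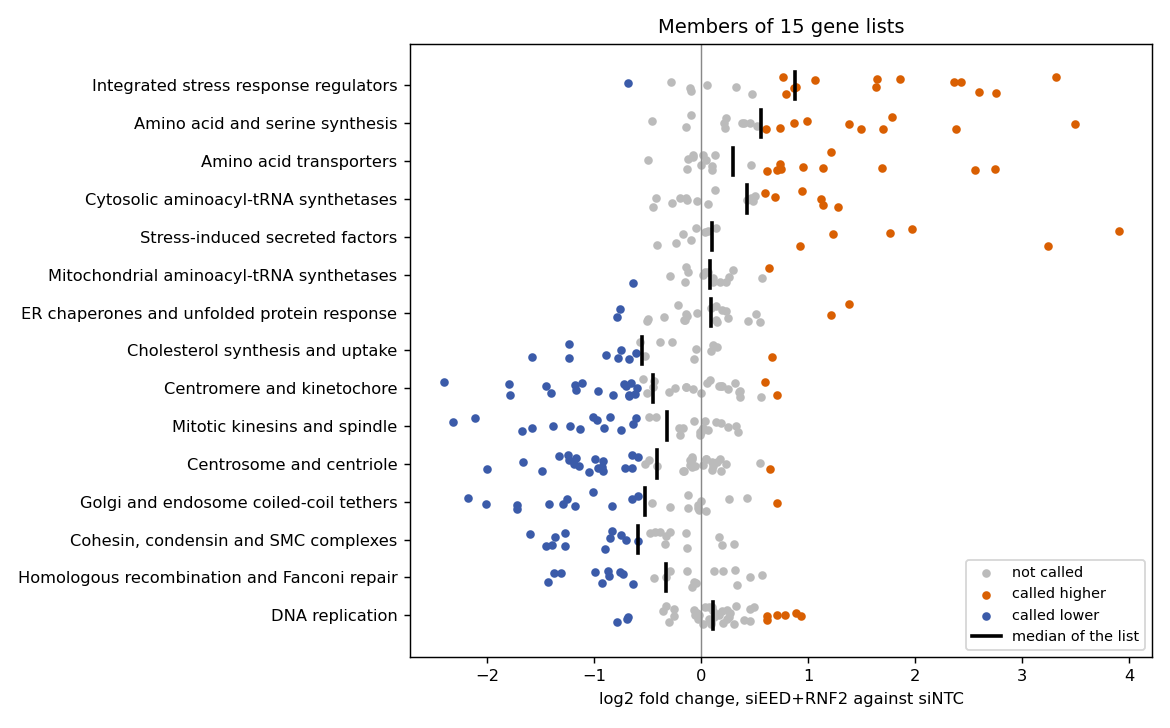
Log2 fold change of siEED+RNF2 against siNTC (horizontal axis) for each measured member of 15 gene lists. Points are genes, orange called higher, blue called lower and grey not called, and black bars are list medians, which run from 0.88 for the stress response regulators to -0.59 for cohesin, condensin and SMC complexes.

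Of 18 genes of the DNA methylation machinery, 4 were higher and 3 lower, with a median of -0.10, and against the mean of siWDR5 and siSETD2, 2 were higher and 1 lower. DNMT3L, a partner of the de novo DNA methyltransferases that is active in germ cells, lay at 8.94 and 8.91 in siEED+RNF2 and 6.46 and 6.48 in the siNTC arrays (log2 fold change 2.46, standard error 0.07, adjusted p = 1.33e-09 from limma). In siEED+RNF2 it was higher than in siRNF2 by 0.61 (adjusted p = 0.000127 from limma). This was 0.56, under the threshold, without siRNF2 replicate 2. Against siNTC, DNMT3L was also higher in siEED (2.19) and siRNF2 (1.84). The decreases were ZBTB33 (-1.09), which binds methylated DNA, TET2 (-0.66), which oxidizes methylcytosine and was -0.07 against that mean, and DNMT3B (-0.62), a de novo methyltransferase, which misses the threshold with quantile normalization (-0.58), with centring on the median over clusters (-0.58) and against the mean of siWDR5 and siSETD2 (-0.57). HHIP, which sequesters hedgehog ligands, lay at 8.692 and 8.868 against 5.998 and 5.849, a 7.24-fold difference. The single knockdowns raised HHIP as well, with log2 fold changes against siNTC of 3.43 in siEED and 2.99 in siRNF2. The joint knockdown lay below siEED by -0.57, under the threshold. Of 15 hedgehog pathway genes 4 rose, and besides HHIP these were the receptor PTCH1 (1.06), DISP1 (0.91), which releases the ligand, and the effector GLI1 (0.72), which misses the threshold without siNTC replicate 1. SUFU, a pathway inhibitor, fell (-0.68). Against the mean of siWDR5 and siSETD2, 2 of the hedgehog genes and 3 of the retinoic acid genes described next were higher. Of 18 retinoic acid genes 5 rose, among them CRABP2 (2.26), which carries retinoic acid to the nucleus, and RARRES2 (2.01). CRABP2 was also higher than siNTC in siEED (2.39) and siRNF2 (1.62). TXNIP, which restrains glucose uptake, rose by 2.35, and by 0.57, under the threshold, against the mean of siWDR5 and siSETD2.

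Cholesterol genes fell in part, and some of them less than with siRNF2 alone. Of 18 measured genes of its synthesis and uptake, 8 fell and 1 rose, with a median of -0.55. HMGCS1, which makes the substrate of the rate-limiting reductase, lay at 10.77 and 10.64 in siEED+RNF2 and 12.30 and 12.28 in the siNTC arrays (log2 fold change -1.58, standard error 0.07, limma adjusted p = 1.1e-08). In siRNF2 it lay at 9.90 and 9.81, so siEED+RNF2 was higher than siRNF2 by 0.86 (adjusted p = 8.91e-06 from limma). Of the 18 genes, 5 were higher in siEED+RNF2 than in siRNF2, with a median log2 difference of 0.39. The count of decreases was 5 against the mean of siWDR5 and siSETD2. Cholesterol genes that respond to sterols are driven by SREBP factors, whose element core TCACNCCAC was in 1 of 17 promoters of the list and in 1.15% of all. Within the list it was in 0 of 8 promoters of genes called lower and in 1 of 8 of genes not called.

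The decreases included a large share of the genes that move and hold chromosomes. Of 40 centromere and kinetochore genes, 17 fell and 2 rose, with a median of -0.45, and of 32 mitotic kinesins and spindle genes, 14 fell and none rose (19 lower and 5 higher at an unadjusted p under 0.05). CENPE, the kinesin that carries chromosomes to the spindle equator, lay at 6.79 and 7.05 in siEED+RNF2 and 9.35 and 9.30 in the siNTC arrays, a 5.30-fold difference (log2 fold change -2.40, standard error 0.09, adjusted p = 7.75e-09 from limma). KIF20B, a kinesin of cytokinesis, lay at 6.70 and 6.89 against 9.20 and 9.03, and ASPM, which focuses spindle poles, at 8.51 and 8.39 against 10.57 and 10.55. The groups stood apart in all 3 genes. KNL1 (-1.80), the scaffold of the kinetochore, SGO2 (-1.78), which protects centromeric cohesion, and the kinesins KIF14 (-1.68) and KIF18A (-1.58) followed. The decrease did not extend to every member, and 21 kinetochore genes and 18 spindle genes were not called. AURKB, TPX2 and PLK1, regulators of the same process, had log2 fold changes of 0.25, -0.01 and 0.01, and the kinetochore gene SKA1 rose (0.71). RNA from bulk cultures cannot tell fewer cells in division from less RNA per dividing cell. With the mean of siWDR5 and siSETD2 as the reference, 8 kinetochore genes and 11 spindle genes fell. None of either list was called higher against that reference, SKA1 included.

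Many promoters of such genes carry the cell cycle gene homology region, TTTGAA, through which they are switched on late in the cell cycle. Searched for on either strand in the same windows, these letters were in 15.4% of 27305 promoters, 75% of 28 spindle promoters and 43.8% of 32 kinetochore promoters. In the spindle list they were in 12 of 14 promoters of genes called lower and in 9 of 14 of genes not called. In the kinetochore list they were in 7 of 15 of genes called lower, 6 of 16 not called and 1 of 1 called higher. Across measured genes they were in 16.7% of promoters of genes called lower, 7.47% of those called higher and 11.8% of those not called. They are shown, in capitals and on the strand of the gene, for the 3 genes named from these lists whose match lies before the start (TTCAAA is a match on the other strand):
ASPM (chr1:197146765-197146794, minus strand): cggatgcaatcaTTCAAAtgaagcgccgcc
KIF18A (chr11:28108157-28108186, minus strand): gctgaggaaagtggcttgggTTTGAAtatt
CENPC (chr4:67545576-67545605, minus strand): tgtgtctccgggTTCAAAcccaggcacagg
Between the match and the start lay 107 bases in ASPM, 4 in KIF18A and 84 in CENPC. CENPE, the gene of these lists with the largest decrease, had no match in its window.

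Transcripts for structural proteins of the centrosome, the Golgi and the chromosome arms were also among the decreases. Of 43 centrosome and centriole genes, 19 fell and 1 rose. Among them were AKAP9 (-2.0), a scaffold for microtubule growth, CEP152 (-1.67) and SASS6 (-1.48), both needed to copy the centriole, and CEP290 (-1.33), a gatekeeper of the cilium. Of 24 long coiled-coil tethers of Golgi and endosome, 12 fell and 1 rose. EEA1, which captures early endosomes, lay at 7.18 and 7.21 against 9.19 and 9.22 in siNTC (log2 fold change -2.01, standard error 0.07, adjusted p = 4.44e-09 from limma), and CCDC186 (-2.18), GCC2 (-1.72) and KTN1 (-1.72) fell as well. Of 23 genes of cohesin, condensin and SMC complexes, 12 fell and none rose (18 lower and 3 higher at an unadjusted p under 0.05), among them SMC4 (-1.60) and SMC2 (-1.40) of condensin, SMC3 (-1.37) of cohesin and SMC6 (-1.45). Of 23 genes of homologous recombination and Fanconi repair, 10 fell and none rose (13 lower and 5 higher at an unadjusted p under 0.05), led by FANCM (-1.43), RIF1 (-1.37) and RAD50 (-1.31), and 6 fell against the mean of siWDR5 and siSETD2. Of 42 replication genes, 6 were higher, 3 lower and 33 not called, with a median of 0.11. All of the 6 increases, RPA3 (0.94) and PRIM1 (0.89) among them, were lost against that reference.

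Zinc finger genes formed a large block of decreases. Of 494 genes with a ZNF symbol, which mostly encode DNA-binding repressors, 107 fell and 9 rose, with a median of -0.17. On chromosome 19, where many lie in clusters, 63 of 237 fell and 1 rose, and on the other chromosomes 44 of 257 fell and 8 rose. The share lower was 21.7% of the 494, 26.6% on chromosome 19 and 17.1% elsewhere, beside 6.02% of all genes. The share higher was 1.82% of the 494, beside 5.49% of all genes. ZNF721 lay at 6.77 and 6.63, against 9.03 and 8.91 in the control, and ZNF680 at 9.40 and 9.31 against 11.32 and 11.25. Both were clear of the control. Members of the family resemble one another closely, so a probe may read more than 1 of them. Against the mean of siWDR5 and siSETD2, 62 of the 494 fell, 29 of them on chromosome 19.

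The direct comparisons with the single knockdowns gave mostly decreases. Their differences use no siNTC array and share the siEED+RNF2 arrays, while their p-values rest on the spread of all 12 arrays. Relative to siEED, 507 genes were lower and 29 higher in siEED+RNF2, and relative to siRNF2, 558 were lower and 44 higher. Below siNTC, siEED and siRNF2 at once lay 301 genes, and above all 3 lay 1. Of the 162 measured genes in the 5 lists of kinetochore, spindle, centrosome, tether and SMC genes, 74 were lower than in siNTC, 59 lower than in siEED and 57 lower than in siRNF2, and 52 belonged to the 301. Over all genes the shares were 6.02% lower than in siNTC, 2.75% than in siEED and 3.03% than in siRNF2. Of the 18386 genes with a known span, 1.64% belonged to the 301. The median log2 difference of the 162 was -0.46 from siNTC, -0.30 from siEED and -0.32 from siRNF2. For the 162, the single knockdowns, set against the same siNTC arrays, had medians of -0.12 and -0.16. The lists differed. Median differences from siEED and siRNF2 were 0.05 and 0.01 for spindle genes, although 11 and 9 of the 32 were called lower. They were -0.18 and -0.15 for kinetochore genes and -0.46 and -0.54 for centrosome genes. Tethers had -0.465 and -0.56, and SMC genes -0.46 and -0.36.

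Among the 301, the 10 genes with the widest margin over the nearer single knockdown had several functions. ESCO1, which acetylates cohesin, lay at 8.30 and 8.27 in siEED+RNF2 and at 9.58 and 9.54 in siNTC, 9.66 and 9.60 in siEED and 9.61 and 9.42 in siRNF2. ROCK1, a kinase of the actin cytoskeleton, lay at 8.22 and 8.35 against 10.08 and 9.88 in siNTC, 9.63 and 9.53 in siEED and 9.52 and 9.47 in siRNF2. SMC6, of the SMC complex that resolves joined DNA, lay at 9.23 and 9.24 against 10.63 and 10.73 in siNTC, 10.49 in both siEED arrays and 10.40 and 10.30 in siRNF2 arrays. The siEED+RNF2 arrays lay below those of the other groups in each of these, which were chosen for that margin. ESCO1 was not called in siEED (0.07) or in siRNF2 (-0.05) against siNTC, while the joint knockdown differed from siEED by -1.34 and from siRNF2 by -1.23, each with a standard error of 0.08 (limma adjusted p = 2.65e-06 and 5.41e-06). ZBTB41 (-1.24 from siEED and -1.20 from siRNF2), RAD50 (-1.18 and -1.11) and IFT74 (-1.10 and -1.14), a carrier of cilium transport, followed the same pattern, with single knockdowns within 0.27 of siNTC on the log2 scale. ZNF721, KTN1, ODF2L and CENPC made up the rest. OLIG3, a neural transcription factor, was the only gene above all 3. It lay at 8.11 in both siEED+RNF2 arrays, 7.03 and 6.84 in siNTC, 7.07 and 7.39 in siEED and 7.41 and 7.52 in siRNF2, and differed from siEED by 0.88 (adjusted p = 0.000125 from limma) and from siRNF2 by 0.64 (adjusted p = 0.0011 from limma).

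**Figure D3:**
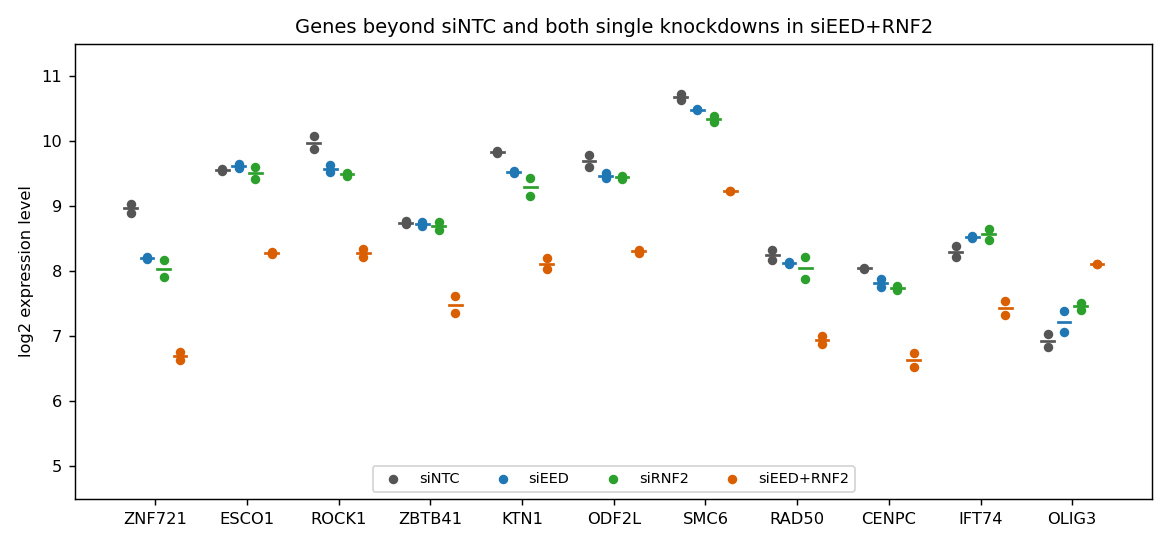
Log2 expression level (vertical axis) in siNTC, siEED, siRNF2 and siEED+RNF2 for the 10 genes furthest below siNTC and both single knockdowns, and for OLIG3, the 1 gene above them. Points are arrays (n = 2 per group) and short bars are group means. In ESCO1 the siEED+RNF2 arrays lie at 8.30 and 8.27 while the other 6 arrays lie between 9.42 and 9.66.

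Genes that fell tended to be long. The span of a gene on GRCh38.p14, from first to last base and introns included, had a median of 53.1 kb for genes called lower, 25.3 kb for genes called higher and 24.5 kb for all, and 63.9 kb for the 301. In 5 equal groups by span, the share called lower than in siNTC rose from 2.61% in the shortest to 3.05%, 5.6%, 8.59% and 10.2% in the longest, while the share called higher stayed between 4.70% and 6.15%. Against the single knockdowns the shares rose with span as well. The share lower than in siEED went from 0.489% in the shortest group to 5.11% in the longest, and that lower than in siRNF2 from 0.299% to 5.90%. The shortest group was also the dimmest, with a median siNTC level of 5.63 against 6.49 to 7.75 in the other groups. Among genes above the median of the mean level over all 12 arrays, the share lower than in siNTC still went from 4.58% to 15.2%, and the share higher went down from 12.9% to 6.21%. The 5 division and tether lists hold long genes, and 111 of their 162 members lay in the 2 longest groups of span. Of these 111, 59 were lower, and of the 51 shorter members, 15 were. Protein length was not analysed here.

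**Figure D4:**
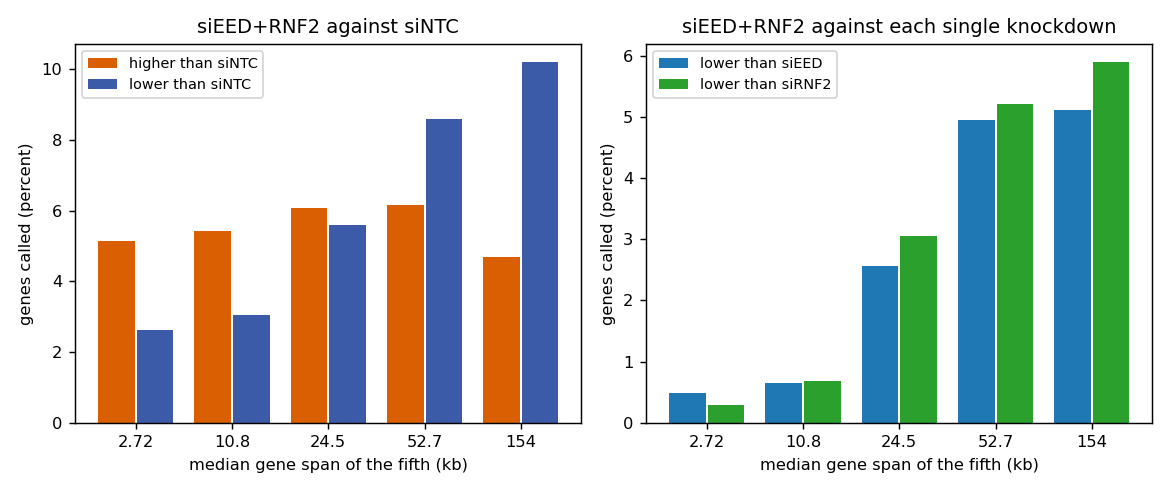
Percent of genes called (vertical axis) in 5 equal groups by gene span, labelled by the median span in kb (horizontal axis). Left, siEED+RNF2 against siNTC, where the share lower runs from 2.61% to 10.2%; right, the share lower than in siEED and in siRNF2, which runs from 0.489% to 5.11% and from 0.299% to 5.90%.

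The decreases were also unequal across chromosomes. On chromosome 22, 2 of 423 genes (0.473%) were lower, on chromosome 17 1.12% and on chromosome 16 1.45%, against 9.72% on chromosome 15, 9.52% on chromosome 2 and 9.21% on chromosome 5. Increases ranged from 2.96% on chromosome 4 to 8.34% on chromosome 17.

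**Figure D5:**
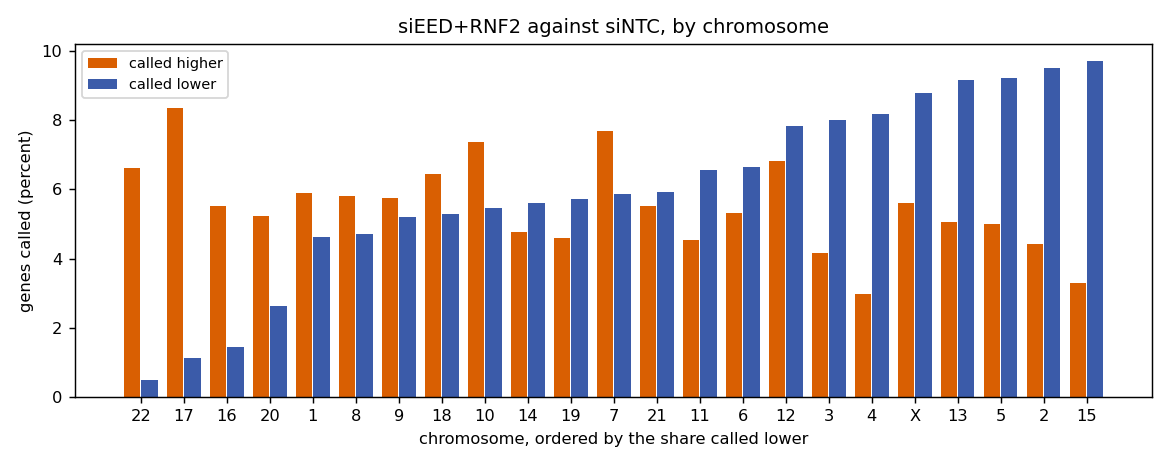
Percent of measured genes called higher (orange) and lower (blue) in siEED+RNF2 against siNTC (vertical axis) on each chromosome (horizontal axis), ordered by the share called lower, from 0.473% on chromosome 22 to 9.72% on chromosome 15.

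Developmental genes are the class that Polycomb complexes are best known to silence. Those listed here were dim on these arrays, with a median siNTC level of 5.42 for developmental transcription factors and 4.81 for HOX genes, beside 6.84 over all genes. Of 55 developmental transcription factors none was called in siEED+RNF2 with limma (9 higher and 10 lower at an unadjusted p under 0.05), with values from -0.52 for HAND1 to 0.49 for SOX1. OLIG3, which is not among the 55, was called higher than in siNTC (1.17, adjusted p = 3.19e-06 from limma). HAND1 was called lower with arrays centred on their median over genes and without siEED+RNF2 replicate 1 (-0.61), and was 1.24 higher than the mean of siWDR5 and siSETD2. Of 27 HOX genes, which pattern the body axis, 2 rose (7.41%, beside 5.49% of all genes) and none fell (6 higher and 2 lower at an unadjusted p under 0.05). HOXB2 lay at 7.65 and 7.26 in siEED+RNF2, 6.44 and 6.45 in siNTC, 6.42 and 6.39 in siEED and 7.86 and 7.69 in siRNF2. The siEED arrays lay with siNTC, and the joint knockdown lay near siRNF2. HOXB2 was higher than in siEED by 1.06 (adjusted p = 4e-05 from limma) and differed from siRNF2 by -0.32 (unadjusted 95% interval -0.55 to -0.08; adjusted p = 0.0654 from limma). HOXB3 had a log2 fold change of 0.66 against siNTC, and 0.58, under the threshold, once each array was centred on its median over genes.

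Of 20 pluripotency factors, 4 were higher and 2 lower, with a median of -0.03, and against the mean of siWDR5 and siSETD2, 1 was higher and 1 lower. L1TD1, an RNA-binding protein of pluripotent cells, lay at 10.30 and 10.42 in siEED+RNF2 and 11.49 and 11.39 in the siNTC arrays (log2 fold change -1.08, standard error 0.07, adjusted p = 1.98e-07 from limma), and was lower than in siEED by -0.68 and than in siRNF2 by -0.80. LIN28B, which blocks let-7 maturation, fell by 0.90 on the log2 scale, and was not called against that mean (-0.57). DPPA3, a germ cell and pluripotency gene, rose by 1.46, but was lower by -0.29 against the mean of siWDR5 and siSETD2. Of 22 feedback and immediate early genes of ERK signalling, 5 fell and 1 rose. DUSP6, the ERK phosphatase, lay at 5.70 in both siEED+RNF2 arrays and 7.95 and 8.02 in siNTC (log2 fold change -2.29, standard error 0.09, adjusted p = 1.04e-08 from limma), and EGR1 (-1.71), FOS (-0.93) and SPRY4 (-0.92) fell as well. DUSP6 was also lower than siNTC in siEED (-2.46) and siRNF2 (-1.87). The count of 5 decreases was the same against the mean of siWDR5 and siSETD2. The 1 increase, CCND1 (0.82), which encodes cyclin D1, was -0.48 against that reference.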

How the data were processed

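Total RNA of 6 groups of NCCIT cells, 2 arrays each, was hybridised to Affymetrix gene arrays. The authors deposited log2 values per transcript cluster. GCRMA and Partek are the tools in the submitters' processing notes, without versions. Nothing was added to the scaling of the deposited values. Genes came from the annotation of the platform: 19460 of 33297 clusters had 1 gene, 1754 several and 12083 none listed, 19429 matched RefSeq by gene number, and for 769 genes with several clusters the brightest was used. A linear model with a mean per group was fitted to 12 arrays (6 residual degrees of freedom) with limma 3.58.1 in R 4.3.3 and moderated by empirical Bayes, with Benjamini-Hochberg adjustment over 18417 genes. A gene was called at an adjusted p under 0.05 and a fold of at least 1.5. Median standard error was 0.08 on the log2 scale. The script was tested on simulated data for this comparison over 18417 genes and called 25, 47, 49 and 50 of 50 genes changed by log2 0.6, 0.8, 1 and 2, and 1 of 18217 unchanged genes. Summaries and plots used Python 3.11.15, pandas 2.3.3, numpy 2.4.6 and matplotlib 3.10.9.

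The members and gene lists were chosen with earlier results of these data known. Genes named were EED, CENPE, KIF20B, ZNF729 and PCK2, the 12 largest called changes in each direction with arrays that did not overlap, as many as 4 called genes per list by size of change, and the 10 genes furthest below siNTC and both single knockdowns with any above all 3. ATF5, CEBPG, DDIT3, ATF3, CEBPB, ATF4, eIF2 kinase genes other than EIF2AK2, LIN28A, SOX2, SOX1, AURKB, TPX2, PLK1 and other list members beyond these were named after their values were seen. Small RNA and uncharacterized symbols (48 called higher and 33 lower) were counted, not named. Alternatives covered the scaling, fit, filter, clusters per gene, thresholds, reference and each array left out.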

Additional observations from a re-analysis of the deposited data

Results flagged for a closer look

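The change in siEED+RNF2 differed from that in each single knockdown by a direct limma contrast, past the adjusted p and fold thresholds in both comparisons and in the comparison with siNTC, for 301 genes that lay below the other groups and 1 that lay above. Given here are the 10 with the widest margins below and the 1 above. No explanation was tested.

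ZNF721 lay lower than in siEED by a log2 difference of -1.51 and than in siRNF2 by -1.34. KTN1, a kinesin receptor of the endoplasmic reticulum, differed by -1.41 and -1.18, and ROCK1 by -1.30 and -1.21. ESCO1 differed by -1.34 and -1.23, SMC6 by -1.25 and -1.11, and RAD50, of the complex that senses DNA breaks, by -1.18 and -1.11. CENPC, which links centromeric chromatin to the kinetochore, differed by -1.18 and -1.10, ODF2L, a centrosomal protein gene, by -1.16 and -1.14, IFT74 by -1.10 and -1.14, and ZBTB41 by -1.24 and -1.20. OLIG3 alone lay higher, by 0.88 than in siEED and 0.64 than in siRNF2.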

How the results depend on the processing

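Of 1011 higher and 1109 lower genes against siNTC, 1588 and 2259 were called over every transcript cluster, 3793 and 3962 with no fold threshold, 238 and 328 at a fold of at least 2, and 595 and 713 with the mean of siWDR5 and siSETD2 as the reference. Against siEED (29 higher, 507 lower) these counts were 73 and 770 over every cluster, 925 and 1605 with no fold threshold, and 4 and 98 at a fold of at least 2. Against siRNF2 (44 and 558) they were 1110 and 2088 with no fold threshold and 4 and 64 at a fold of at least 2, with 99 higher over every cluster and 79 higher after centring on the median over genes. The 301 genes below all 3 groups became 1029 with no fold threshold and 29 at a fold of at least 2. Leaving out 1 array in turn gave 1024 to 1086 higher and 1057 to 1194 lower than siNTC, 17 to 55 higher and 466 to 548 lower than siEED, 55 to 84 higher and 467 to 694 lower than siRNF2, and 260 to 332 in the set of 301. The smallest and largest counts higher than siEED came without siEED replicate 1 (17) and replicate 2 (55), and 84 came without siRNF2 replicate 2. Of 149 named genes, 147 were called. Counting only losses with the sign kept, 63 of these lost the call under at least 1 alternative. That was 44 at a fold of at least 2 and 43 with the other reference. That reference turned the sign of A2M (0.012), ACTG2 (1.78), CCND1 (-0.48), DPPA3 (-0.29), NDUFB3 (0.19) and SLC5A9 (-0.061). These genes are not in the 43, although with that reference all but ACTG2 lay under the fold threshold. The cause was not tested.

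Deviations of arrays with the same replicate number were weakly correlated (from -0.107 to 0.161 between groups, 0.047 between siEED+RNF2 and siNTC). The largest was between siRNF2 and siEED+RNF2. With 2 arrays a group this cannot settle whether the numbers pair the arrays, and the main fit did not pair them. With the replicate block, 1011 genes were higher and 1109 lower than siNTC, 30 and 507 against siEED, and 301 lay below all 3 groups. With 2 arrays a group, changes near a fold of 1.5 are at the limit of what the design can call.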

Other observations

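Over all genes, 5.49% were called higher and 6.02% lower in siEED+RNF2 than in siNTC. Of 47 measured replication-dependent histone genes, 9 (19.1%) were higher, among them H2AC4 (log2 fold change 2.10), H2AC14 (1.60) and H1-3 (1.48), and 1 was higher against the mean of siWDR5 and siSETD2. Histone genes of a class are nearly identical, so a probe may read several of them. Of 40 genes of oxidative phosphorylation, 4 were higher, led by COX6C (1.19), and 3 lower, namely SDHD (-1.15), NDUFB3 (-0.96) and UQCRB (-0.82). Against the mean of siWDR5 and siSETD2, COX6C (0.10) and SDHD (-0.29) were not called. Of 15 inhibitors of mTORC1, DDIT4 (3.32), SESN2 (2.43) and DEPTOR (1.35) were higher. Of 21 p53 targets, 4 were higher and 2 lower, the lower ones being RRM2B (-1.0), a ribonucleotide reductase subunit, and MDM2 (-0.77), the ligase that degrades p53.

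Among tissue genes, DLK1 (1.84), an imprinted growth regulator, and DPYSL5 (2.05), of growing axons, were higher, and SCG3 (-1.89), of secretory granules, was lower. SCG3 was -0.02 against the mean of siWDR5 and siSETD2. TAC1, the precursor of substance P, was higher than in siNTC by 1.64 and lower than in siRNF2 by -2.42. TFAP2C (1.11), a regulator of trophoblast and germ cells, was the 1 called of 11 trophoblast genes.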
